A study of Drosophila melanogaster with 2 samples.

Results

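The genes elav, fne and Rbp9 make up the ELAV family of Drosophila melanogaster, and the binding of the transcription factor Pox neuro (Poxn) around them is described here for 3 of 13968 protein-coding genes on the chromosome arms. The members were taken by name from the Ensembl BDGP6 annotation, and every deposited peak that lay inside a member or within 5 kb of it was collected. The family was selected with its peaks already known, above all the signal of the peak at elav, so the peaks near the members are a description with no test. One strong peak lay just upstream of elav, 1 peak of moderate signal lay downstream of Rbp9 at the start sites of other genes, and no peak that passed the authors' threshold lay near fne.

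Chromatin came from whole embryos aged 0 to 24 h of the strain Poxn-GFP, a transgenic line that expresses a Poxn-eGFP fusion protein, and it was sheared by sonication before immunoprecipitation and sequencing. The antibody was against GFP in the sample descriptions, whereas the antibody field named Poxn. There was 1 group of 2 biological replicates. A control that the labels list as possible was not analysed here, and the depth of the libraries is not stated. The data are lists of peaks on dm6, and the cells that a whole embryo holds cannot be told apart in them.

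ELAV family proteins carry RNA recognition motifs and bind U-rich stretches of RNA. In neurons they direct alternative splicing and the choice of polyadenylation site, and the elav protein is the standard marker of differentiated neurons in the fly. The protein of fne (found in neurons) is a neuronal paralog of elav, and Rbp9 acts in neurons and in the female germ line. Poxn is a paired-domain protein known for the specification of chemosensory organs.

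Of the 1488 peaks called on both replicates together, the main set, 1 lay within 5 kb of elav and 1 within 5 kb of Rbp9. The sequences shown are those at the strongest candidate of each gene and at the promoter of Rbp9, and thus come from 2 peaks that passed the threshold and 2 candidates that did not. Each reaches 100 bp to either side of a summit in the Release 6 genome of RefSeq, the assembly of dm6, 5′ to 3′ on the strand of the member gene. Capitals mark matches to any of 12 words searched on both strands.
elav promoter peak (chrX:523412-523612, minus strand): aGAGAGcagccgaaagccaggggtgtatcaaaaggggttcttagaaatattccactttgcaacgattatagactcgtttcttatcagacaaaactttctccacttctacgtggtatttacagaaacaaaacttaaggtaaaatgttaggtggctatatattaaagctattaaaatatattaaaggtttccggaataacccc
Peak between Rrp1 and gammaTub23C, downstream of Rbp9 (chr2L:2972694-2972894, plus strand): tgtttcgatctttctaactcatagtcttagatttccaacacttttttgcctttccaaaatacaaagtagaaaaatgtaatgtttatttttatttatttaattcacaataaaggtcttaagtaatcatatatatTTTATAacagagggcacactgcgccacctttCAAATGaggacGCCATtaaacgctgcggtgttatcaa
Rbp9 promoter candidate, below the threshold (chr2L:2956688-2956888, plus strand): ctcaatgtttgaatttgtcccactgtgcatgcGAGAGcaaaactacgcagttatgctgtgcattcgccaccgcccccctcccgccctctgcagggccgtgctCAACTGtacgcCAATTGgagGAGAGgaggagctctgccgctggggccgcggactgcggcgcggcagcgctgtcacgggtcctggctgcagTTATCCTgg
fne intron candidate, below the threshold (chrX:12925870-12926070, plus strand): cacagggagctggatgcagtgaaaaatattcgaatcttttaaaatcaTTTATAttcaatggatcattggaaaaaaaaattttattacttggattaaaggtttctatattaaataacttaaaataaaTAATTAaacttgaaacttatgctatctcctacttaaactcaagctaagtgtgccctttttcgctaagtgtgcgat

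The gene elav (FBgn0260400) occupied X 509235 to 523226 on the minus strand, with 4 transcripts and 2 transcription start sites (TSSs). Its peak spanned X 523423 to 523562, lay 197 bp outside the gene, and its summit was 286 bp from the distal TSS at 523226, on the upstream side. A long noncoding RNA gene, lncRNA:enrr, has a TSS at the same base. The peak also fell in intron 3 (X 510362 to 526501) of arg, the arginase gene, which has 5 exons and runs on the other strand. The nearest TSS of any gene other than elav and lncRNA:enrr was more than 5 kb from the summit.

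The elav peak was among the strongest of the experiment. Its signal, the enrichment value that the authors gave each peak, was 301.6 in the pair's list and ranked 66 of 1488, where the median of the list was 81.2 and the highest value 1086. Replicate 1 had a peak of signal 117 there, rank 91 of 800, and replicate 2 one of 184, rank 53 of 979. Signal is not stated to be on 1 scale across lists, so ranks within a list are the values to set side by side. The conservative list of 1353 peaks held the peak at the same coordinates, again at rank 66. The −log10 of the irreproducible discovery rate (IDR) is a measure that is higher where a peak recurs at a like rank. It was 4.77 for the pair's peak, 4.61 for the conservative one and 5 for that of each single replicate.

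The position of the elav peak was close in both replicates. In replicate 1 it spanned X 523341 to 523620 and the summit was 255 bp from the TSS. In replicate 2 it spanned X 523446 to 523591 and the summit was 313 bp from the TSS. The peak was 140 bp wide in the main set, 280 bp in replicate 1 and 146 bp in replicate 2. The commonest width was 304 bp in the main set (1370 peaks), 280 bp in replicate 1 and 296 bp in replicate 2. Of the main set, 41 peaks (2.76%) were as narrow as that of elav, and their median signal was 237.4. Peaks narrower than 304 bp were generally strong, with a median signal of 318.3 over 116 peaks, against 77.4 over the peaks of 304 bp.

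**Figure D1:**
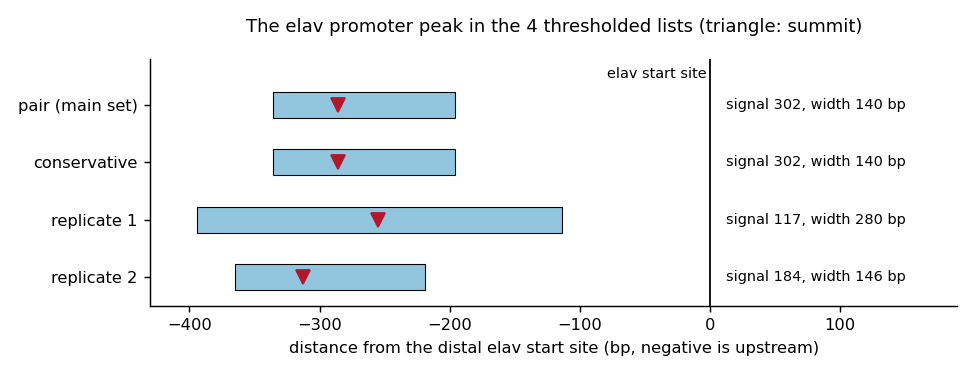
Extent (bars) and summit (triangles) of the elav promoter peak in the 4 lists that passed the authors' threshold, as distance in bp from the distal elav start site, with negative values upstream. All 4 lie upstream of the start site, with summits between 255 and 313 bp from it, and the replicate 1 peak is the widest at 280 bp.

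No candidate of any ranked list, which also hold the peaks below the threshold, had its summit within 500 bp of the proximal elav TSS at X 520285. The pair's ranked list of 146020 candidates had 7 within 5 kb of elav and 0 overlapping the gene. After the promoter peak the next had a signal of 24.5, in the arg intron upstream of elav. In replicate 1 alone, 2 candidates overlapped elav, with signals of 22.4 and 2.79. A second peak of the main set lay 9320 bp beyond the 3′ end of elav, at X 499612 to 499915. Its signal was 71.0, rank 921, and it was 194 bp upstream of a TSS of svr, which encodes a carboxypeptidase. Neither thresholded list of a single replicate held that peak, but both ranked lists did, with a signal of 27.6 in replicate 1 (percentile 97.9) and 43.2 in replicate 2 (percentile 99.2).

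The gene Rbp9 (FBgn0010263) occupied 2L 2954762 to 2968434 on the plus strand, with 9 transcripts and 3 TSSs. Its 1 peak of the main set spanned 2L 2972642 to 2972945, 4208 bp beyond the 3′ end of the gene. The signal was 84.5, rank 696 of 1488 and near the median of the list, and the −log10 IDR was 2.78. Replicate 1 had a peak of signal 38.3 there, rank 732 of 800, and replicate 2 one of 59.2, rank 470 of 979. The peak was thus in the lower part of the replicate 1 list and in the middle of the replicate 2 list.

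The peak near Rbp9 lay between the divergent start sites of 2 other genes. Its summit was 97 bp upstream of gammaTub23C, which encodes a gamma-tubulin of the centrosome, and 286 bp upstream of Rrp1, which encodes a DNA repair endonuclease. The start site of Ts, the thymidylate synthase gene, was 3156 bp from the summit, and those of CG9641 and CG3165 were 4068 and 4328 bp away. Those of Rbp9 itself were further off, the nearest 13647 bp from the summit. A further peak of the main set, 8383 bp from Rbp9 with a signal of 74.0, lay between CG9641 and CG3165. It was in the thresholded list of replicate 2, at a signal of 41.9. In replicate 1 it was only in the ranked list, at a signal of 37.4 and a −log10 IDR of 1.79.

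At the start sites of Rbp9 the ranked lists held candidates that did not pass. The strongest, at 2L 2956636 to 2956939, peaked 123 bp before the TSS at 2956911 and had a signal of 40.3 and a −log10 IDR of 0.703. It ranked 4836 of 146020, at percentile 96.7. The strongest candidate within 500 bp of that TSS had a signal of 20.9 in replicate 1, with its summit 478 bp downstream, and of 17.0 in replicate 2, with its summit 168 bp upstream. Each replicate also had a candidate on the other side of the TSS, of 20.0 upstream in replicate 1 and 11.4 downstream in replicate 2. No summit of the pair's ranked list was within 500 bp of the Rbp9 TSSs at 2954762 and 2959147. The conservative ranked list held 1 candidate 308 bp upstream of the TSS at 2954762, with a signal of 19.6, percentile 60.4.

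The gene fne (FBgn0086675) occupied X 12917477 to 12950417 on the plus strand, with 11 transcripts and 4 TSSs. None of the 4 thresholded lists had a peak in it or within 10 kb. The strongest of its 25 candidates within 5 kb lay in an intron, at X 12925818 to 12926121, with a signal of 38.1 and a −log10 IDR of 0.148. An overlapping candidate had a signal of 14.0 in replicate 1 and of 27.9 in replicate 2. The highest −log10 IDR around fne was 0.510 in the pair's list and 0.673 in any list, against the threshold of 2. Among the pair's candidates, in or out of the main set, the lowest value past 2 was 2.0007 and the highest below 2 was 1.9999.

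The start sites of fne were at the weak end of the candidates. At the TSSs at 12917477 and 12917484, the strongest candidate had a signal of 7.24, percentile 13.8 of the pair's ranked list. At 12938517 it had 4.38, percentile 5.68, and at 12941272 there was none. In replicate 1 the strongest candidate at any fne TSS had a signal of 2.75, and in replicate 2 one of 5.81.

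**Figure D2:**
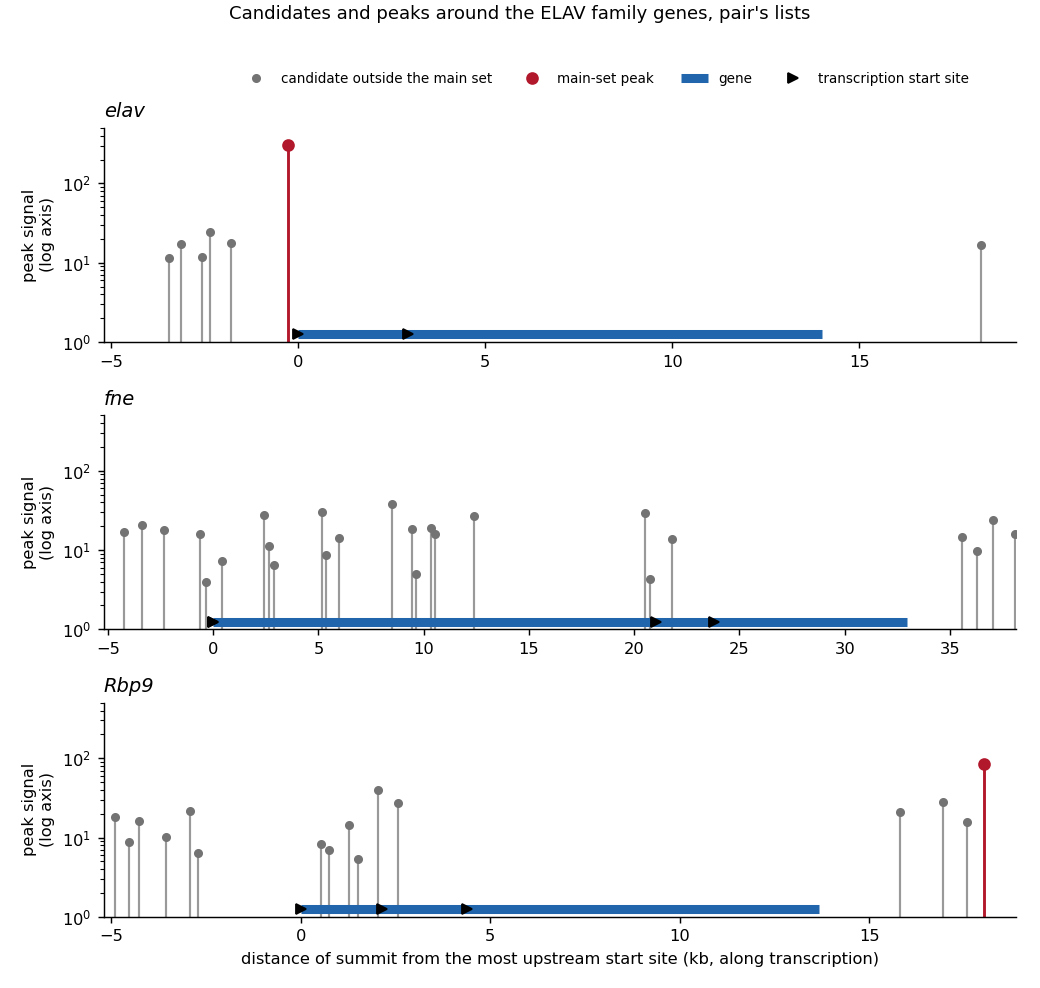
Candidates (grey) and main-set peaks (red) of the pair's lists around elav, fne and Rbp9, with signal on a log axis against the distance of the summit in kb from the most upstream start site, along transcription. Blue bars are the genes and arrowheads their start sites. The 2 red points are the peak of signal 301.6 just upstream of elav and that of 84.5 beyond the end of Rbp9, and fne has none.

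Promoter candidates of the 3 genes kept 1 order in each list. Taking the strongest candidate within 500 bp of a TSS, elav stood at percentile 99.91 in replicate 1 and 99.95 in replicate 2. Rbp9 stood at percentiles 92.7 and 83.9, and fne at 2.42 and 16.9. The replicate values of the 3 genes did not overlap, but there are only 2 per gene. For Rbp9 and fne they also come from different candidates. The Rbp9 summit was 478 bp downstream of the TSS in replicate 1 and 168 bp upstream in replicate 2. The fne value was from the TSS at 12938517 in replicate 1 and from those at 12917477 and 12917484 in replicate 2. The members were also selected with their peaks known, so nothing is read from this order. Among the 10822 protein-coding genes with such a candidate in the pair's list, elav ranked 71, Rbp9 1919 and fne 10433.

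**Figure D3:**
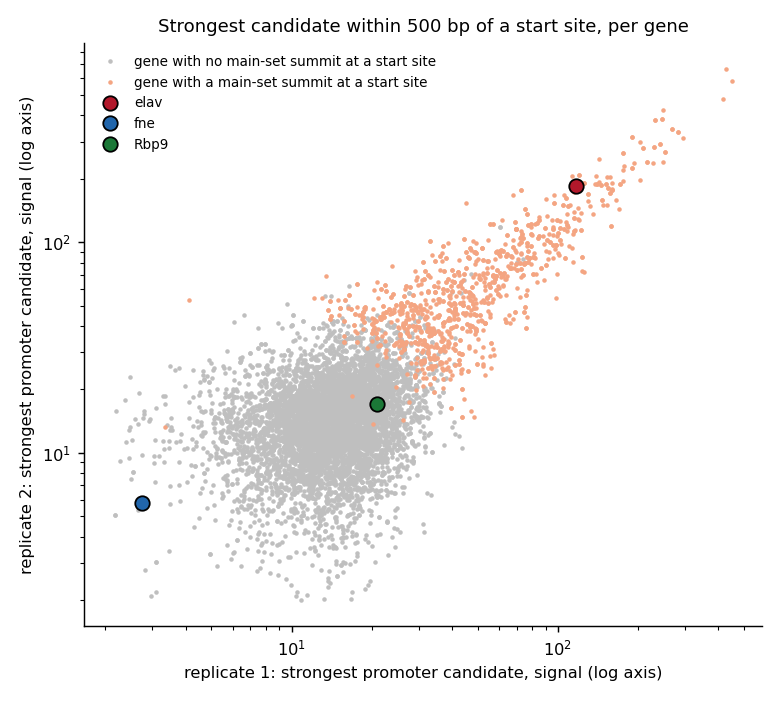
Signal of the strongest candidate within 500 bp of a start site in replicate 1 (x) and replicate 2 (y), both on log axes. There is 1 point per protein-coding gene with a candidate in both replicates and in the pair's list. Orange points are genes with a main-set summit there. The elav point lies at 117 and 184 among the strongest orange points, Rbp9 at 20.9 and 17.0 among the grey points, and fne at 2.75 and 5.81 near the lower left corner. The 2 values of a gene can come from candidates at different places, as those of Rbp9 and fne do.

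The counts of peaks near the family were set beside those of all protein-coding genes. In the main set, 2 of 3 members had a peak inside or within 5 kb, against 23.4% of all protein-coding genes, and the same 2 had one in each other thresholded list. The share over all protein-coding genes was 21.9% in the conservative list, 14.0% in replicate 1 and 17.9% in replicate 2. Longer genes have more room for a peak, and the share was 33.8% among genes of 10 kb or more, a length that all 3 members reach. A main-set peak overlapped the body of 0 of 3 members, against 7.78% of genes. A main-set summit was within 500 bp of a TSS in 1 of 3, against 9.97% of genes with a candidate there. Since the family was selected on these lists, nothing is read from the counts.

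Candidates of any strength were sparse around elav. There were 0.292 per kb within 5 kb of elav, 0.582 around fne and 0.676 around Rbp9, where the median over protein-coding genes was 1.22 per kb, and 5.36%, 8.80% and 10.4% of genes had a lower density. Their median signals were 17.0, 15.9 and 16.1, against 16.9 for all candidates on the arms. Of the candidates, 2 of 7 at elav, 13 of 25 at fne and 7 of 16 at Rbp9 overlapped a candidate in the ranked list of each replicate, against 46.4% of all 143270 candidates on the arms. By annotation, 16 of the 25 around fne were intronic, most of them inside fne. Around Rbp9, 6 of the 16 were in coding exons, all of them outside Rbp9 and so of neighbouring genes. Around elav, 5 of the 7 were intronic, and all 5 lay upstream of elav, in introns of other annotation and not of elav.

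The 4 sequences differed in base composition and in the words they held. The elav window had a GC content of 35.8%, the window between Rrp1 and gammaTub23C 31.3%, the promoter candidate of Rbp9 62.7% and the intron candidate of fne 28.4%. The median was 34.8% over main-set windows and 46.3% over other candidates. The words were GTCACGC (core of Pax2/5/8 sites), GAGAG (GAGA factor), TATCGATA (DRE), CAGGTAG (Zelda), TAATTA (homeodomain proteins), CANNTG (E-box), GGTCACAC (core of Motif 1), GCCAT (Pho), AGGATAA (Tramtrack 69), TCAGTT (initiator), TATAAA (box bound by TBP) and CGATA (BEAF-32). The BEAF-32 word lies within the DRE word, so a DRE counts for both.

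The elav window held 1 of the 12 words, GAGAG, with the match centred 97 bp upstream of the summit. The match lay outside the 140 bp peak of the main set, which held 0 words, but inside the 280 bp peak of replicate 1. GAGAG was in 21.5% of main-set windows of the same length and in 23.0% of windows of other candidates. The window between Rrp1 and gammaTub23C held 1 match each to the TBP word, the E-box word and the Pho word. The TBP word was in 35.4% of main-set windows and 15.1% of other candidates, the E-box word in 57.8% and 67.1%, and the Pho word in 27.3% and 40.4%. The Rbp9 promoter candidate held the GAGA factor and E-box words 2 times each and the Tramtrack 69 word once. The Tramtrack 69 word was in 1.73% of main-set windows and in 2.34% of other candidates. The fne candidate held the homeodomain word, found in 17.5% of main-set windows and 9.80% of other candidates, and the TBP word. The paired-domain core GTCACGC, which was in 1.17% of main-set windows and in 1.21% of other candidates, was in none of the 4 sequences. A match is a run of letters and not a site.

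Around the start sites themselves, from 250 bp before to 50 bp after, the letters GAGAG were in 8 of the 9 windows of the family, and 2 of the fne windows overlap almost fully. All 19276 promoters of protein-coding genes held GAGAG in 33.1% of cases. GAGAG is 1 of 12 words, and common words were missing from family windows. The BEAF-32 word was in 45.6% of all promoters and in none of the family windows. The E-box word was in 77.8% of all promoters. It was missing from both elav windows, the Rbp9 window at 2959147 and the fne windows at 12917477 and 12917484. No word was tested, and nothing is read from these counts. Both elav windows held GAGAG as their only word. The Rbp9 window at 2954762 was the one without it, and held the E-box, Motif 1 and TBP words.

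Genes with the most similar promoter candidates were found from the percentiles of the strongest candidate in the pair and in each replicate, over 7172 genes with a candidate in all 3 lists. Nearest to elav were CG3009, with a signal of 283 in the pair, and CG13016 and CG13018, with identical values of 315, and all were in the main set. CG13016 and CG13018 also had equal signals in each replicate, 125 and 190, so 1 peak may be counted for both. Nearest to Rbp9 were Cyp6a19 (38.3), Or43a (39.4) and CG12480 (38.1), and nearest to fne were CG7653 (8.23), CG13678 (7.25) and CG31365 (7.75), none of them in the main set.

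The family was set beside 3 gene lists, namely other RNA-binding proteins, genes whose RNAs ELAV is known to process, and genes of neuronal differentiation and the synapse. Of 30 RNA-binding protein genes, 24 had a candidate within 500 bp of a TSS, and 5 of these (20.8%) had a main-set summit there, against 9.97% of protein-coding genes. The median signal of their strongest candidate was 35.9, against 24.3 for all protein-coding genes. Over the 3 lists together, each gene counted once, 50 of 62 genes had such a candidate. Of these, 5 (10%) had a main-set summit, a share near the 9.97% of all protein-coding genes. The counts of the 3 lists are given without a test.

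The strongest of the 5 was msi, which encodes Musashi, a translational repressor in sense organ precursors. Its peak at 3R 25515835 to 25515964 was 130 bp wide, with a signal of 288, rank 70, a place near that of elav, and its replicate signals were 129 and 156. A peak of signal 91.3 lay at shep, which encodes an RNA-binding protein of neuronal remodelling, with replicate signals of 42.0 and 45.6. The other 3 were orb (75.3), glo (56.5) and ssx (55.6), which encode a CPEB protein of the oocyte, the repressor Glorund and a paralog of Sex-lethal. These 3 peaks were in neither thresholded list of a single replicate. Those of orb and glo were nearer to another start site, that of Cdc16, 45 bp from the summit, and that of COX5A, 83 bp from it.

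Of 13 genes whose RNAs ELAV is known to process, 8 had a promoter candidate, with a median signal of 37.2, and only shep, which is in both lists, had a main-set summit (12.5%). Of 22 genes of neuronal differentiation and the synapse, 21 had a promoter candidate and 0 a main-set summit. The share over all protein-coding genes was 9.97%, and neither of these short lists was tested against it. The median signal of the 21 genes was 24.1, and the values ran between 15.5 and 38.5. The highest were brp (38.5), a scaffold of the presynaptic active zone, and Fas2 (36.2), a neuronal adhesion protein, and both were named after their values were seen. So was Appl, the amyloid precursor protein-like gene, whose candidate of 28.7 lay 7156 bp upstream of elav. All were below the signal of the Rbp9 candidate, at 40.3, and above that of fne, at 7.24.

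**Figure D4:**
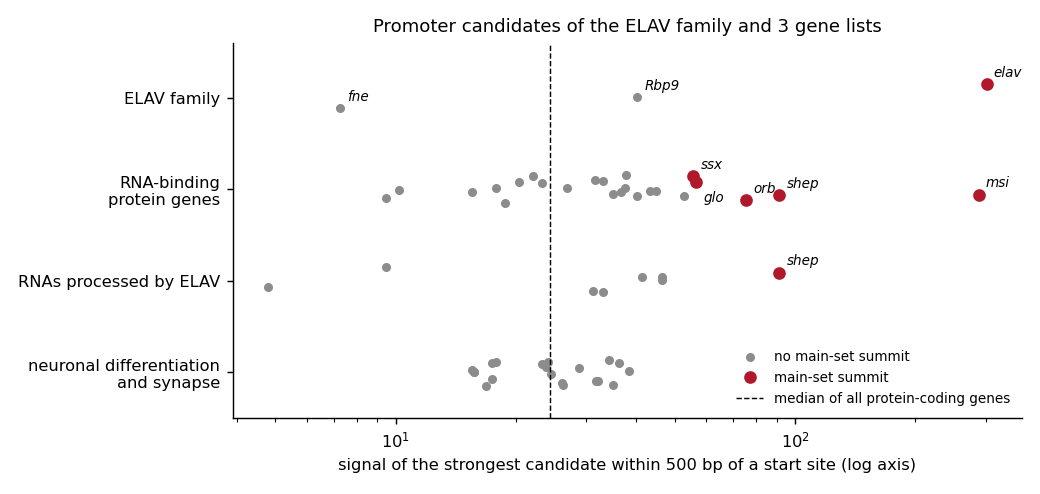
Signal of the strongest candidate within 500 bp of a start site, on a log axis, for the 3 ELAV family genes and the genes of the 3 lists, with red points for main-set summits and a dashed line at the median of all protein-coding genes, 24.3. Points are shifted vertically for legibility. The elav and msi points stand at 302 and 288, apart from all other listed genes, and no gene of neuronal differentiation and the synapse is red.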

How the data were processed

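Poxn ChIP-seq peaks were deposited for 2 biological replicates of whole embryos, as 8 lists on dm6: a ranked and a thresholded list for each replicate, for the pair and for a conservative version of the pair. The deposited signal is the authors' enrichment value per peak, whose normalisation is not stated; it was used to rank peaks within a list. The score from 0 to 1000 is scaled by the authors from the IDR, and the deposited −log10 IDR values were at least 2, an IDR of 0.01, in the thresholded lists. Of the 1606 candidates of the pair past 2, 118 were not in its thresholded list. The sources used here name no read depth, aligner or peak caller, and the precision that depth gives is unknown.

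Genes came from Ensembl release 115 and sequence from RefSeq's Release 6 assembly, which dm6 shares. Distances used a 1 bp overlap rule for windows and the summit for start sites. Analysis used Python 3.11.15 with pandas 2.3.3, numpy 2.4.6 and matplotlib 3.10.9, and the procedures were tested on simulated data. All 62 listed genes were matched, 1 of them, nanos, through a renamed symbol.

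Members, lists and words were chosen with earlier results of these data known. The text names the members, genes with a start site within 5 kb of a thresholded peak near them, up to 6 genes of each list with a main-set promoter summit, and the 3 genes most like each member by percentile. Genes outside that rule are named only to place a peak or where said to be chosen after their values were seen. Counts were repeated with the conservative list, single replicates, other windows, a stricter IDR and other sequence windows.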

Additional observations from a re-analysis of the deposited data

How the results depend on the processing

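The peak counts at fne were 0 under all 8 alternatives, and those at elav and Rbp9 were 1 in the conservative list, in each replicate alone and with the summit required to lie in the window. Counting peaks in the gene body gave 0 at elav and 0 at Rbp9, and a 10 kb window gave 2 at each. A 2 kb window gave 0 at Rbp9, and a −log10 IDR of at least 3 gave 0 at Rbp9 and 1 at elav. Listed genes with a main-set promoter summit were 5, or 10% of those with a candidate in the window. Single replicates gave 2 to 3 (4% to 6%). A start site window of 250 bp gave 3 (7%), a window of 1000 bp gave 10 (19%), and the stricter IDR gave 1, msi (2%). The share over all protein-coding genes was computed at the main setting only, so nothing is read from the rise or fall of these counts. Words in the windows of the 2 main-set peaks were 4 in all, against 1 in windows reaching 50 bp from the summit. The unknown read depth limits what an absent peak means: none was detectable at fne with these lists. No paired analysis was possible because there is 1 group.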
